A study of Mus musculus with 7 samples.

Results

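The 42 genes described here handle fatty acids in muscle, from their release and uptake to the last step of oxidation in the mitochondrion. They were taken by name, with no measured value in the rule, although the list was drawn up with earlier results of these data known. All 42 symbols matched 1 gene each among the 21938 protein-coding genes of the annotation, which left 21896 other genes for comparison. Lipoprotein lipase frees fatty acids from lipoproteins, CD36 and the fatty acid transport proteins bring them into the myofiber, and fatty acid binding proteins carry them in the cytosol. Acyl-CoA synthetases then attach coenzyme A, the carnitine shuttle moves the acyl group into the mitochondrion, and malonyl-CoA holds that shuttle back. Inside, the β-oxidation spiral shortens the chain round by round and passes electrons to the electron transfer flavoprotein. Skeletal muscle depends on this route at rest, during fasting and in long exercise.

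The data are lists of ChIP-seq peaks, places in the genome where an antibody enriched DNA over input DNA. BMAL1, the activator of the circadian clock, and RNA polymerase II (RNAP2) were precipitated at Zeitgeber time (ZT) 4, and REV-ERBα, a clock repressor, at ZT 8, counted in hours from lights on. All chromatin came from gastrocnemius, a calf muscle, of wild-type C57BL/6J males at 5 months of age, with 2 replicates per factor. 1 further sample of the 7 was input DNA and was not analysed here. No genotype or treatment differed between the samples, and factor and time changed together between REV-ERBα and the other antibodies, so that those cannot be told apart. The tissue was taken whole, and a peak does not tell which of its cells carried the protein.

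Each peak had a −log10 p, the deposited measure of how far the reads exceeded the input, and a fold enrichment over the input. Peaks were listed from a −log10 p of about 1.3, which is a loose threshold, and the lists differed in length from 28881 to 177669 peaks. A region was therefore counted only where the peaks of both replicates overlapped, which left 10752 RNAP2, 1263 REV-ERBα and 2742 BMAL1 regions in the genome. The window of a gene was its body plus 10 kb on each side of any of its transcription start sites (TSSs), and its promoter was 1 kb on each side of a TSS. Where a strength is given, it is the smaller −log10 p of the pair of replicates. Of 10 marker genes of the skeletal myofiber, 10 had an RNAP2 region, with a median strength of 31.1, and 9 had a REV-ERBα and 9 a BMAL1 region. Of the genes with RNAP2 outside the fatty acid list, 8.52% had a REV-ERBα and 10.3% a BMAL1 region. REV-ERBα regions at *Ckm*, *Myh4* and *Actn3* were nearest to the TSSs of *Mark4*, *Myh8* and *Ctsf*. BMAL1 regions at *Ckm*, *Actn3* and *Tnnc2* were nearest to *Mark4*, *Ctsf* and *Ube2c*, and 1 summit at *Myh4* to *Myh8*. At the other myofiber markers with a region, the marker's own TSS was nearest. An RNAP2 region was present at 0 of 6 adipocyte, 1 of 6 endothelial, 2 of 6 macrophage and leukocyte and 0 of 6 hepatocyte markers. The endothelial gene was *Kdr*, with a replicate 1 summit 44811 bp from its own TSS. The other 2 were *Csf1r* and *Cd68*, and the region of *Cd68* was nearest to the TSS of *Eif4a1*. *Ttr*, a hepatocyte marker, lacked an RNAP2 region but had a REV-ERBα region, at −log10 p of 21.7 and 30.8.

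RNAP2 occupied most of the fatty acid genes at ZT 4. BMAL1 and shared sites were about as rare at them as at other genes with RNAP2, and REV-ERBα was found at 1. An RNAP2 region was present in both replicates at 33 of the 42 genes (78.6%), beside 41.1% of the other protein-coding genes. Within 1 kb of a TSS it was present at 30 of 42 (71.4%), beside 30.5%. In a single list the windows differed less, since a peak of replicate 1 lay at 41 of 42 (97.6%), beside 76.9%, and one of replicate 2 at 40 (95.2%), beside 86.4%. REV-ERBα had a region at 1 of the 33 genes that carried RNAP2 (3.03%), beside 8.52% of the other 8994 genes with RNAP2. BMAL1 had a region at 3 of the 33 (9.09%), beside 10.3%, which is close to the background. A site listed by 3 or all 4 of the clock factor samples, here called shared, was present at 1 of the 33 (3.03%), beside 3.04%, which is the background share. These shares describe 2 peak lists per factor, and no test between groups of samples could be made from them.

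**Figure D1:**
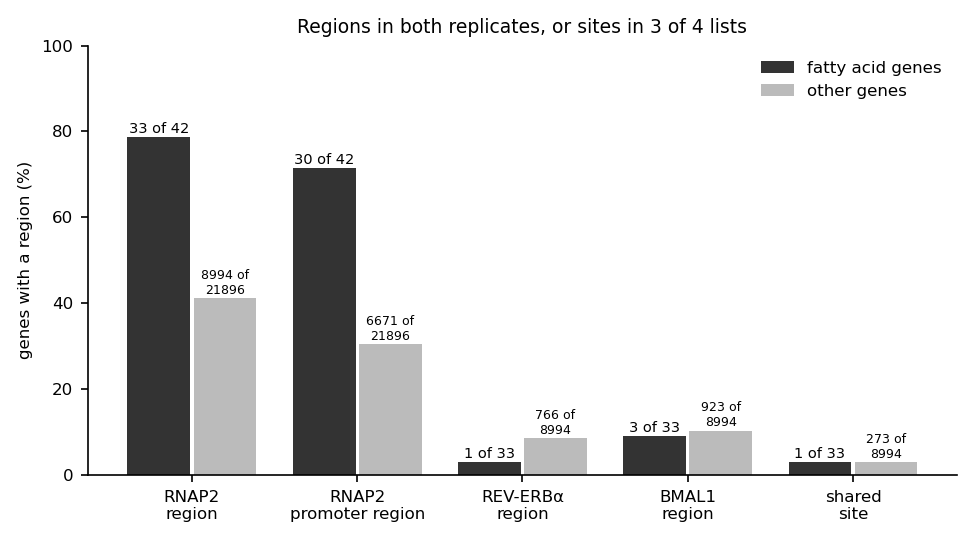
Percentage of genes with a region, for the fatty acid genes (dark bars) and the other protein-coding genes (light bars); the 2 RNAP2 pairs are over all genes and the other 3 pairs over genes with an RNAP2 region in both replicates. The RNAP2 bars of the fatty acid genes stand at 78.6% and 71.4%, against 41.1% and 30.5%, and no REV-ERBα or BMAL1 bar passes 10.3%.

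Where RNAP2 was present in both replicates, its strength was close to that of other genes. The median strength was 4.88 over the 33 genes, with a range from 1.98 to 14.1, and it was 4.47 over the other 8994. Of the 33 genes, 18 lay above that background median. A −log10 q of at least 1.3 in both replicates was reached by 17 of 33 (51.5%), beside 46% of the other genes. The median fold enrichment at the strongest region was 5.26 in replicate 1 and 3.72 in replicate 2, against 4.85 and 3.5 in the other genes. Replicate 1 had the higher −log10 p at 26 of the 33 genes (78.8%), as it did at 80.7% of the other genes. The order of the genes was only partly kept between replicates, with a Spearman rho of 0.511 across the 33 genes against 0.713 across the other genes. These are correlations across genes in 1 pair of lists, and genes are not replicates.

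RNAP2 lay close to the starts of these genes. The summit lay within 1 kb of a TSS of the gene itself in both replicates at 30 of 33 genes (90.9%), beside 66.1% of the other genes with RNAP2. The median distance from summit to TSS was 56 bp in replicate 1 and 74 bp in replicate 2, against 149 and 154 bp. Any annotated TSS of a gene counted in these values. The number of TSSs ranged from 1 at *Fabp3* to 13 at *Crat*, and that of the other genes is not given. Among genes with RNAP2 the windows were of like length, with a median of 37012 bp for the 33 genes and 37126 bp for the others. Over all 42 genes the median window was longer than over all other protein-coding genes, at 36985 against 30186 bp. A second RNAP2 region was seen at 5 of the 33 (15.2%), beside 26.1%. The 5 were *Acsl6*, *Fabp3*, *Fabp4*, *Acaca* and *Cpt1b*, and the second region of *Cpt1b* lay at the TSS of its neighbour *Chkb*. At 27 of 33 genes (81.8%) the gene's own TSS was the nearest to both summits, beside 69.8% of the others. Among the other 6, the *Acaca* region was nearest to *Tada2a*, the *Acot13* region to *Tdp2*, the *Fabp3* region to *Gm10570* and 1 summit at *Etfb* to *Gm45233*, so that RNAP2 at these starts cannot be assigned to 1 gene. *Hadha* and *Hadhb* share 1 region, and the 33 genes thus rest on 32 strongest regions. Another gene's TSS also lay within 1 kb of the strongest regions of *Crat*, *Acsl3*, *Echs1*, *Acaa1a* and *Etfdh*, although their own TSSs were nearest. The neighbours were *Ptpa*, *Utp14b*, *Paox*, *Myd88* and *4930579G24Rik*, in that order, so RNAP2 there cannot be assigned with certainty either.

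**Figure D2:**
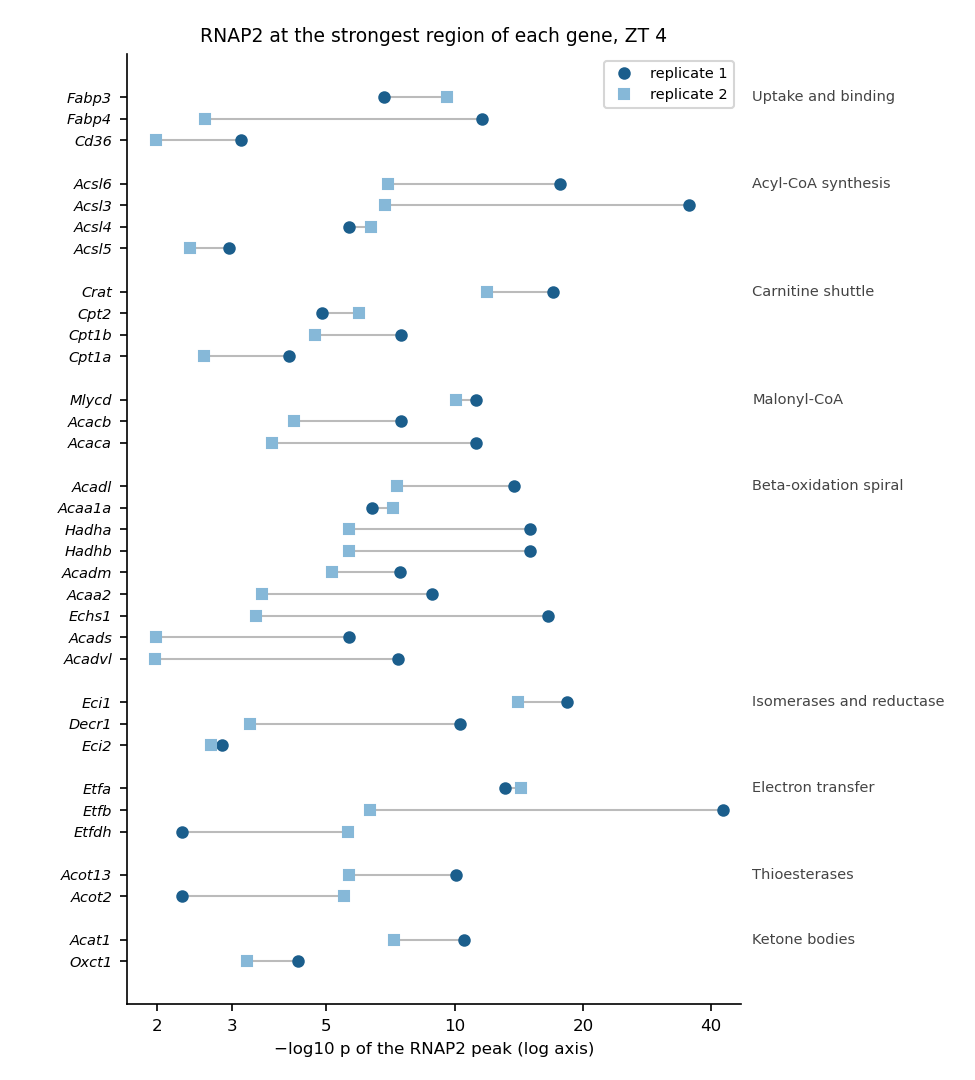
RNAP2 −log10 p (log axis) at the strongest region of each of the 33 genes with a region in both replicates, grouped by role; circles are replicate 1, squares replicate 2, and a line joins them. *Eci1*, *Etfa*, *Crat* and *Mlycd* lie above 10 in both replicates, while *Acads*, *Cd36* and *Acadvl* fall below 2 in replicate 2.

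The genes of uptake and transport in the cytosol carried RNAP2 in both replicates at 3 of 6. *Fabp3*, the fatty acid binding protein of muscle and heart, had 6.81 in replicate 1 and 9.58 in replicate 2, both as −log10 p. Its fold enrichment was 4.58 and 5.29, and its strength exceeded that of 71% of the other genes. *Fabp4*, better known from adipocytes and endothelium, had 11.6 in replicate 1 but only 2.6 in replicate 2. The adipocyte markers had no RNAP2 region in both replicates, and 1 of 6 endothelial markers had one, *Kdr*, at 2.7 and 1.99. That region lay 44811 bp from the *Kdr* TSS by its replicate 1 summit, and 0 of 6 endothelial markers had an RNAP2 promoter region. *Cd36*, the fatty acid translocase, had its region in an intron, at 3.15 and 1.99, more than 3 kb from the nearest of its TSSs. A replicate 1 peak of 3.91 lay 32 bp from a TSS of *Cd36*, where replicate 2 listed none.

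*Lpl*, *Slc27a1* and *Slc27a4* lacked an RNAP2 region in both replicates, although each had a promoter peak in replicate 1. For *Lpl*, which encodes lipoprotein lipase, that peak had 7.33 on the −log10 p scale with 4.91-fold enrichment, at 22 bp from the TSS. Replicate 2 listed no RNAP2 peak anywhere in its window. *Slc27a4*, a fatty acid transport protein gene, had 6.25 at its TSS in replicate 1, and the replicate 2 promoter peaks of 1.71 and 1.99 did not overlap it. *Slc27a1*, the main transport protein gene of muscle, had 3.11 in replicate 1, and replicate 2 had 3.26 almost 9 kb upstream. At none of these 3 genes did a replicate 2 peak overlap the promoter peak of replicate 1.

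Acyl-CoA synthesis genes had RNAP2 in both replicates at 4 of 5, with a median strength of 6.26. *Acsl3* had one of the highest values of replicate 1, at 35.5 with 14.6-fold enrichment, but 6.88 with 4.45 in replicate 2. *Acsl6*, a long-chain acyl-CoA synthetase gene, had 17.7 and 6.97, and its region was not at a promoter but inside the gene. *Acsl4* had 5.65 and 6.35, and *Acsl5* had 2.95 and 2.39. *Acss1*, which activates acetate in the mitochondrion, had a promoter peak of 6.55 in replicate 1 and no promoter peak in replicate 2, where the highest of its 5 peaks had 2.6.

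In the carnitine shuttle, 4 of 5 genes carried RNAP2 in both replicates. *Crat*, the carnitine acetyltransferase gene, had 17 in replicate 1 and 11.9 in replicate 2, with summits 23 and 42 bp from the TSS, and its strength exceeded that of 89.4% of the other genes. *Cpt1b*, the muscle form of the enzyme that loads acyl groups onto carnitine, had 7.49 and 4.71, and *Cpt2*, which takes them off inside the mitochondrion, had 4.88 and 5.96. *Cpt1a*, the form best known from liver, had its region in an intron 2291 bp from the TSS, at 4.09 and 2.58. A replicate 1 peak of 13 lay 14 bp from a *Cpt1a* TSS, without a peak of replicate 2 there. *Slc25a20*, the carnitine-acylcarnitine carrier, had a replicate 1 promoter peak of 3.97, and the summits of its 3 replicate 2 peaks all lay in introns. The edge of a replicate 2 peak, chr9:108671166-108671501, reached within 1 kb of a downstream TSS and counts as a promoter peak there.

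All 3 malonyl-CoA genes carried RNAP2 at a promoter in both replicates. *Mlycd*, which degrades malonyl-CoA, had 11.2 in replicate 1 and 10.1 in replicate 2, the fourth highest strength of the 33. *Acacb*, the mitochondrial acetyl-CoA carboxylase that makes malonyl-CoA in muscle, had 7.49 and 4.2. *Acaca*, the cytosolic form, had 11.2 and 3.72 at the start it shares with *Tada2a*, and 5.69 and 3.57 at a second start of its own.

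In the β-oxidation spiral itself, 9 of 10 genes had an RNAP2 promoter region in both replicates, with strengths from 1.98 to 7.34. The acyl-CoA dehydrogenases take the first step and differ in the chain length they prefer. *Acadl*, for long chains, had 13.8 and 7.34, and *Acadm*, for medium chains, had 7.43 and 5.16. *Acadvl*, for very long chains, had 7.38 in replicate 1 but 1.98 in replicate 2, and *Acads*, for short chains, had 5.65 and 1.99. The replicate 2 values of this last pair are near the listing threshold.

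The trifunctional protein genes *Hadha* and *Hadhb* start head to head from 1 RNAP2 region, chr5:30154752-30155612 (mm10), with 15 in replicate 1 and 5.64 in replicate 2. The replicate 1 summit was 25 bp from the *Hadha* TSS and the replicate 2 summit 18 bp from the *Hadhb* TSS. *Echs1*, the enoyl-CoA hydratase gene, had 16.6 and 3.41. *Acaa1a*, a peroxisomal thiolase gene, had 6.41 and 7.17, and *Acaa2*, the mitochondrial thiolase gene, had 8.86 and 3.54. *Hadh*, which encodes the short-chain hydroxyacyl-CoA dehydrogenase, was the exception, with a promoter peak of 4.58 in replicate 1 and a single replicate 2 peak of 1.97 in an exon 25373 bp from the TSS.

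The isomerases and the reductase that prepare unsaturated chains for the spiral carried RNAP2 at 3 of 3 promoters. *Eci1* had the highest strength of the 33 genes by the smaller value of the pair, with 18.4 in replicate 1 and 14.1 in replicate 2 and summits 2 and 7 bp from its TSS. Its strength exceeded that of 92.9% of the other genes with RNAP2. *Eci2* had 2.85 and 2.68, and *Decr1* had 10.3 and 3.31. Electron transfer genes were likewise occupied at 3 of 3 promoters. *Etfa* had 13.1 and 14.3, and *Etfb* had the highest replicate 1 value of the 33, 42.7, but 6.34 in replicate 2. *Etfdh*, which hands the electrons to ubiquinone, had 2.29 in replicate 1 and 5.62 in replicate 2.

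Thioesterases, which release free fatty acids from acyl-CoA, had RNAP2 in both replicates at 2 of 3. *Acot13* had 10.1 and 5.64 and *Acot2* had 2.29 and 5.51. *Acot1*, the cytosolic neighbour of *Acot2*, had no RNAP2 peak in its window in either list, alone among the 42. These 2 genes are close paralogs, as *Acaa1a* and *Acaa1b* are, and multi-mapping reads were removed before peak calling, so the missing peak at *Acot1* is uncertain, and so is the lack of a region at *Acaa1b*. Of the ketone body genes, *Acat1* had 10.5 and 7.22 and *Oxct1*, which starts ketone use in muscle, had 4.3 and 3.26. *Bdh1* had promoter peaks of 3.97 and 3.26 in the 2 replicates, but their summits lay 211 bp upstream and 243 bp downstream of a TSS and the peaks did not overlap. *Pla2g7*, a secreted phospholipase gene, had a promoter peak of 3.21 in replicate 1 and none in replicate 2.

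Of the 9 genes without a region in both replicates, all but *Acot1* thus had a promoter peak in replicate 1. Counting any peak, the RNAP2 list of replicate 1 reached a promoter of 41 of 42 genes (97.6%), beside 48.9% of the other genes. The list of replicate 2 reached 35 of 42 (83.3%), beside 47.9%. Of the 22 other genes of the pathway, 15 (68.2%) had an RNAP2 region in both replicates, with a median strength of 4.93, and 11 had one at a promoter. Among these, *Acsl1*, the main long-chain synthetase of muscle, had 12.3 and 11. Those without one included *Hsd17b10*, *Decr2*, *Gpihbp1*, *Slc27a3*, *Acsf2* and *Acaa1b*.

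REV-ERBα reached a single fatty acid gene in both replicates, *Acsl6*. The region spans chr11:54351779-54352308 (mm10) and covers an intron and a coding exon of *Acsl6*. Replicate 1 gave it a −log10 p of 3.24 at 2.5-fold enrichment, and replicate 2 gave 3.36 at 2.57-fold. The summits lay 6170 and 6011 bp from the nearest TSS of the gene. A BMAL1 peak of replicate 1 overlapped it, at a −log10 p of 2.15, which makes it the only shared site among the 42 genes. BMAL1 replicate 2 had no peak there. RNAP2 also lay over it, with a 1919 bp peak of 17.7 in replicate 1 and a peak of 4.69 in replicate 2, beside which a second replicate 2 peak reached 6.97. No REV-ERBα or BMAL1 region covered a promoter that carried RNAP2 in both replicates, at 0 of 30 genes for each factor, beside 5.44% and 1.86% of the other genes with RNAP2 at a promoter.

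**Figure D3:**
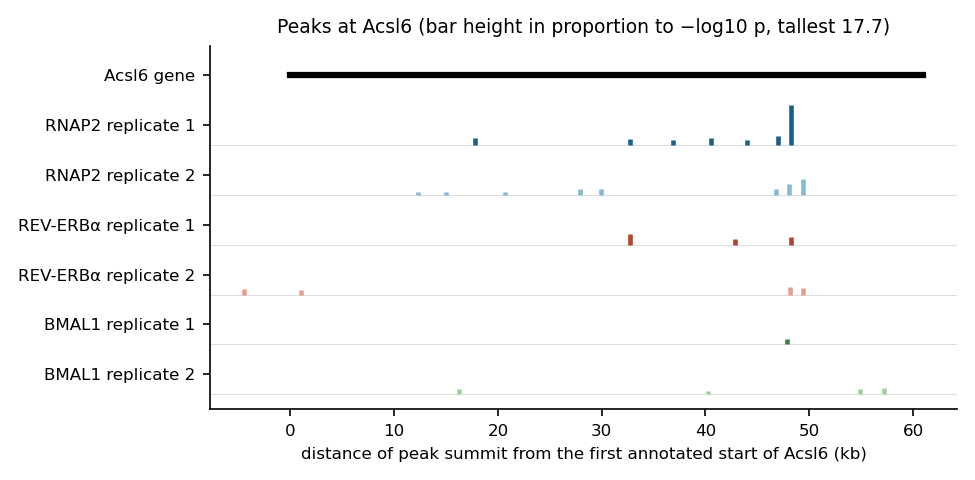
Peaks in the window of *Acsl6* in the 6 lists, by the distance of their summits from the first annotated start (kb); bar height is in proportion to −log10 p, and the black line is the gene. RNAP2, REV-ERBα and BMAL1 replicate 1 meet near 48 kb, where RNAP2 replicate 1 reaches 17.7, REV-ERBα 3.24 and 3.36 and BMAL1 2.15.

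The bases around the *Acsl6* region are printed because they are the only ones among the 42 genes that REV-ERBα marked in both replicates, and the bases upstream of the first RefSeq start of *Acsl6* because they hold the element TCAAGGTCA. Both are on the plus strand of GRCm38.p6, the first at chr11:54351853-54352102 and the second at chr11:54303574-54303823. Capitals mark GGGTCA in the first stretch and AGGTCA with or without TCA before it in the second, all read on either strand.
Acsl6 region: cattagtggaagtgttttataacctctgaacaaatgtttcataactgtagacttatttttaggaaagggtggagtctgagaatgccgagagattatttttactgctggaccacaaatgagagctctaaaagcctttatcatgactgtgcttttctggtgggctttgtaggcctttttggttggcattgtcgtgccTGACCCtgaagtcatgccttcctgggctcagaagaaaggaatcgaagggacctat
Acsl6 upstream: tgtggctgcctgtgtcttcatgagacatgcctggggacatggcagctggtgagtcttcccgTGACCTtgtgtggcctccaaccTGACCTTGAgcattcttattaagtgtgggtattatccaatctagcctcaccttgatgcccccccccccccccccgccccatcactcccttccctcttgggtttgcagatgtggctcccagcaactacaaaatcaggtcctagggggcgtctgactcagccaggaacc
AGGTCA and GGGTCA are spellings of the half-site to which REV-ERBα and other nuclear receptors bind, and TCAAGGTCA is the element of the estrogen-related receptors. In the region, the reverse of GGGTCA begins at base 196, inside the exon that fills the last 81 bases. It lies 5 bp from the replicate 1 summit and 149 bp from the replicate 2 summit, which is the stronger. Within 100 bp of the stronger summit, GGGTCA was thus absent here, and 8.64% of the other 1262 REV-ERBα regions held it. The upstream bases have no RNAP2 peak of either replicate over them.

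Single REV-ERBα lists held more peaks, which outside *Acsl6* did not overlap between replicates. A peak of replicate 1 lay in the window of 18 of the 33 genes (54.5%), beside 49.8% of the other genes with RNAP2, and one of replicate 2 at 12 (36.4%), beside 52.8%. Over all 42 genes, a peak was listed in each replicate at 4 genes, *Acaca*, *Acsl5*, *Acsl6* and *Eci2*, and in neither at 11. The matching shares over other genes are not given, so these 2 counts cannot be called high or low. The highest replicate 1 value was 4.76, at a downstream start of *Acsl6*. The highest of replicate 2 was 4.22, in the promoter of *Acaa2* at 280 bp upstream of its TSS, where it overlapped the RNAP2 region. *Slc27a1* had a replicate 1 peak of 3.79 at 335 bp upstream of its TSS. None of the 31 replicate 1 and 27 replicate 2 peaks in the windows reached a −log10 q of 1.3, and 10 and 3 of them reached a −log10 p of 3. Low values were common in these lists, where the upper quartile of −log10 p over all peaks was 3.02 and 3.18. The share of all listed peaks that reached this q is not given.

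**Figure D4:**
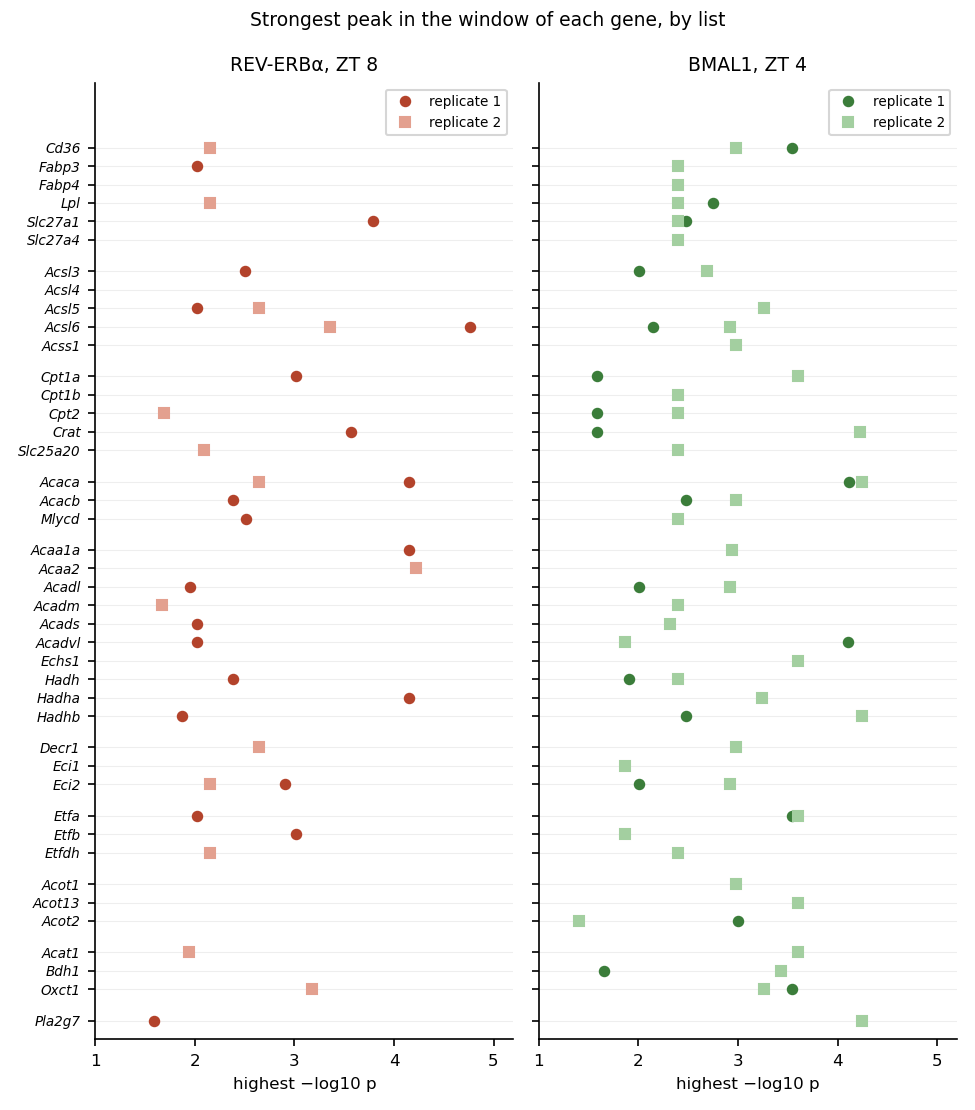
Highest −log10 p of a REV-ERBα peak (left) and a BMAL1 peak (right) in the window of each of the 42 genes, in order of role; circles are replicate 1 and squares replicate 2, and a missing symbol means no peak in that list. All values lie below 5, with the highest REV-ERBα value, 4.76, at *Acsl6* and the highest BMAL1 values, 4.25, at *Acaca*, *Hadhb* and *Pla2g7*.

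BMAL1 had a region in both replicates at *Cd36*, *Crat* and *Oxct1*, and all values were low. *Cd36* had 2 of them. The first, chr5:17834428-17835508, had 2.48 in replicate 1 and 2.4 in replicate 2, within 1 kb of a TSS. The second, chr5:17861388-17862315, had 2.48 and 1.87 in an intron. *Oxct1* had 3.54 and 1.4 in an intron, at chr15:4039874-4040541, about 7 kb from a TSS. The region in the *Crat* window, chr2:30397541-30398295, had 1.58 and 2.4 and lay past the end of the gene, nearest to the TSS of *Dolpp1*. It did not overlap the RNAP2 region at the *Crat* promoter.

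Since *Cd36* held 2 of the 4 BMAL1 regions, bases around the midpoint of both summit pairs are given, on the minus strand as the gene is read (GRCm38.p6). The first stretch is chr5:17835150-17835399 and the second chr5:17861893-17862142, and the capitals mark GGGTCA.
Cd36 promoter region: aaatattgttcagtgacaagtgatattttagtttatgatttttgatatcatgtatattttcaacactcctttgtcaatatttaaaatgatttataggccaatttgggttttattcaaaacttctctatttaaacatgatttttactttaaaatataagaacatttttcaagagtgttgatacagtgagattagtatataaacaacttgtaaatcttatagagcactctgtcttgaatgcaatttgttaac
Cd36 intron region: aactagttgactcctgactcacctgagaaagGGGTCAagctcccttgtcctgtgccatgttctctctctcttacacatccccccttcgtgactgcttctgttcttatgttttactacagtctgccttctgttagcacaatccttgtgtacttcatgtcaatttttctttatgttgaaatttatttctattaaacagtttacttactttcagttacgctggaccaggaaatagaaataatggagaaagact
BMAL1 and its partner CLOCK bind the E-box, CACGTG, and neither stretch holds it. Both summits of the first region, at chr5:17835441 and chr5:17835109, lie outside the first stretch, which therefore does not show the bases at them. Within 100 bp of the stronger summit, 0 of the 4 BMAL1 regions held CACGTG, beside 2.56% of the other 2738 BMAL1 regions. GGGTCA in the second stretch lies 94 bp from the replicate 1 summit and 81 bp from that of replicate 2.

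In the single BMAL1 lists, a peak of replicate 1 lay at 15 of the 33 genes (45.5%), beside 48.3%, and a peak of replicate 2 at 31 (93.9%), beside 93.1%. The second list is the longest of all, with 177669 peaks against 34737, and its shares say little about single genes. *Acadvl* had a replicate 1 peak of 4.11 whose summit lay 256 bp inside the gene and which overlapped the RNAP2 peak at the start. BMAL1 replicate 2 reached 1.87 at most in the *Acadvl* window, with no overlapping peak. *Acaca*, the longest window of the 42, had 6 peaks in replicate 1 and 34 in replicate 2, up to 4.12 and 4.25, without an overlap. None of the 33 and 199 peaks in the windows of the 42 genes reached a −log10 q of 1.3. Over all BMAL1 peaks, the upper quartile of −log10 p was 3 in replicate 1 and 2.4 in replicate 2. The share of all BMAL1 peaks that reached this q is not given. Outside the list, *Acsl1* had a BMAL1 region at 2.3 and 2.98, and *Scp2* a REV-ERBα region at 2.5 and 4.35 that was nearest to *Podn*.

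The promoters themselves were read for the same motifs in RefSeq sequences of GRCm38.p6, from 250 bases before to 50 after a start, which matched 34 of the 42 genes with 39 starts. CACGTG occurred on either strand in 1 of the 39 (2.56%), beside 8.03% of 20150 promoters of protein-coding genes. AGGTCA occurred in 7 (17.9%), beside 14.4%, and GGGTCA in 6 (15.4%), beside 13.7%. TCAAGGTCA, which contains AGGTCA, occurred in 1 (2.56%), beside 0.337%. The direct repeat bound by the PPAR receptors, 2 copies of AGGTCA with 1 base between them, occurred in 0 of 39, beside 0.0496%. The lone E-box promoter belonged to *Slc27a1*. The genes with AGGTCA were *Acacb*, *Acadm*, *Acadvl*, *Acsl6*, *Cd36*, *Cpt1a* and *Echs1*, and those with GGGTCA were *Acsl3*, *Acsl5*, *Bdh1*, *Etfdh*, *Oxct1* and *Slc27a1*.

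The bases upstream of the *Slc27a1* start with the E-box, chr8:71570344-71570593 on the plus strand, and those upstream of *Acadvl*, chr11:70015429-70015678 read on the minus strand, show the E-box and a half-site in capitals. They are shown as examples. Each gene also had a promoter peak of a clock factor in replicate 1, as did *Acsl5*, *Acsl6* and *Cd36*, whose promoters hold a half-site too.
Slc27a1 upstream: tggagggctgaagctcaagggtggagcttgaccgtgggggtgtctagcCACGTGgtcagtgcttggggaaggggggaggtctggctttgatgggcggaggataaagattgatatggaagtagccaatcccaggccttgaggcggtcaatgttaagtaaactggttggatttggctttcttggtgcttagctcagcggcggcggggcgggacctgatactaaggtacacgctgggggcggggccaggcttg
Acadvl upstream: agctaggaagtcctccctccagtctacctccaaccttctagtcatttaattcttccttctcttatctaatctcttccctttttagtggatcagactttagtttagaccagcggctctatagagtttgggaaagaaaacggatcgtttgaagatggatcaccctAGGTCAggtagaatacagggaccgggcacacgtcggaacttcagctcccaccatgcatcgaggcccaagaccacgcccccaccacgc
CACGTG of *Slc27a1* lies at chr8:71570392-71570397, and the replicate 1 REV-ERBα peak of that gene, chr8:71568362-71568744, does not reach it. A BMAL1 peak of replicate 2, chr8:71570793-71571040, with 2.4 and a summit 238 bp from a TSS, does not reach it either, and BMAL1 replicate 1 had no promoter peak at this gene. AGGTCA of *Acadvl*, chr11:70015510-70015515, falls inside the replicate 1 RNAP2 peak, chr11:70015175-70015546, and outside the BMAL1 peak of replicate 1. It also falls outside the REV-ERBα peak of replicate 1 at this gene, chr11:70012406-70012825, with a −log10 p of 2.02. A match of letters describes the window and does not show that a factor bound there.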

How the data were processed

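The authors aligned ChIP-seq reads to mm10 with BWA 7.12 and removed duplicate and multi-mapping reads. They called peaks in each sample against input DNA with MACS2 2.1.1 at a p-value of 0.05. The deposited lists give per peak a score, a fold enrichment (ratio to input), and −log10 p and −log10 q values as the authors' caller wrote them. The score was not used. Reads per peak are not in the lists, so no counting interval could be given. Per the labels the replicates are separate samples, and nothing else in them tells animals apart.

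Peaks overlapping by 1 bp were merged into regions. Windows used GENCODE M21 on GRCm38.p6, whose coordinates are those of mm10. The genes named with values were those with a REV-ERBα or BMAL1 region or shared site, the 10 of highest RNAP2 strength and those without RNAP2 in both replicates. Others named, and TCAAGGTCA, were chosen after their values were seen. The 42 genes, the lists of other pathway genes and markers were chosen with earlier results of these data known. Some genes of these lists are counted but not reported by name here. No test was run. Alternatives changed the window, thresholds, overlap, list length, summit rule and replicates. Code was tested on simulated peaks. Software was Python 3.11.15, samtools 1.23.1, pysam 0.24.0, SciPy 1.17.1, NumPy 2.4.6 and matplotlib 3.10.9.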

Additional observations from a re-analysis of the deposited data

How the results depend on the processing

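Of 57 alternatives, 37 left the count within 1.5 times of the reported one, or the median strength within 2.29, the SD between replicates of the median −log10 p. When only peaks from −log10 q 1.3 upward were kept, 17 genes had an RNAP2 region, beside 18.9% of other genes, and 16 had one at a promoter, beside 15%. REV-ERBα, BMAL1 and shared sites then fell to 0, beside 4.45%, 0.532% and 0.774% of other genes with RNAP2. The 3 counts were likewise 0 within 1 kb of a TSS among the 30 genes with RNAP2 there, beside 5.44%, 1.86% and 1.47%. This leaves out *Cd36*, whose BMAL1 region lies at a promoter without RNAP2 in both replicates. With a −log10 p of at least 3, BMAL1 and shared sites were at 0, beside 0.934% and 1.28%. REV-ERBα stayed at 1, *Acsl6*, beside 6.33%. An overlap of 50% of the shorter peak left BMAL1 at 1, *Cd36*, beside 7.07%, and lists of equal length left it at 0, beside 3.26%. At shares this low, counts of 0 or 1 among so few genes do not set them apart from other genes. Without 1 replicate, RNAP2 regions ranged from 40 to 41, beside 86.4% of other genes without replicate 1 and 76.9% without replicate 2, in place of 41.1%. Promoter regions then ranged from 35, beside 47.9%, to 41, beside 48.9%. REV-ERBα ranged from 12, beside 52.8%, to 18, beside 49.8%, and BMAL1 from 15, beside 48.3%, to 31, beside 93.1%. Shared sites ranged from 0 to 1, beside 1.37% to 1.81%. The median strength ranged from 5.13, beside 3.26 in other genes, to 7.43, beside 4.79, the latter without RNAP2 replicate 2. From −log10 q 1.3 upward it was 6.81, beside 7.94, so that the order of the 2 medians depended on the setting. When 1 clock factor list was left out, the shared site at *Acsl6* was kept only without BMAL1 replicate 2, since that list has no peak there. No paired analysis was possible because the results come from peak lists of 1 group per factor and from no test. The cause of these changes was not tested, beyond that stricter settings keep fewer peaks.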
